A study of Rattus norvegicus with 24 samples.

Results

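The miR-34 and miR-449 family was followed in small RNA sequencing of rat brain through 6 mature miRNAs, named in the files rno-miR-34a-5p, rno-miR-34b-5p, rno-miR-34b-3p, rno-miR-34c-5p, rno-miR-34c-3p and rno-miR-449a-5p, with rno for rat. The members were taken by name from the 728 miRNAs in the count tables. The name rule matched 8 miRNAs, of which 6 were members, and the other 2 were miR-34a-3p, with at most 4 reads in a library, and miR-449a-3p, with 0 reads in all 24 libraries. One member, miR-34c-3p, was among the cortical miRNAs that the study picked from these libraries for PCR, so the cortical injury contrast is described here without a test of the members. The study's droplet digital PCR on the same samples found no significant change of miR-34c-3p in cortex. For most candidates without a significant PCR change the study reports a pattern like that of sequencing, and its text does not name them.

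Adult male Sprague-Dawley rats received a lateral fluid-percussion traumatic brain injury (TBI), in which a fluid pulse strikes the exposed dura, or a sham operation with anaesthesia and surgery but no impact. Perilesional cortex and ipsilateral thalamus were taken from each rat 3 months later, which gave 4 groups of 6 libraries (sham cortex, TBI cortex, sham thalamus and TBI thalamus) from 12 rats. The injured rats had been selected for a chronic inflammatory rim around the lesion on MRI, so they stand for that subset of injured rats and not for all of them. Both tissues are bulk dissections, in which fewer cells of a type and less RNA per cell cannot be told apart.

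The family is best known for 2 roles. The gene of miR-34a is a direct target of the transcription factor p53, and miR-34a represses cell cycle and survival genes after cellular stress. miR-34b and miR-34c are cut from a shared primary transcript, and together with miR-449a they are abundant in multiciliated cells, such as the ependymal lining of the ventricles and the choroid plexus epithelium, where they take part in the formation of cilia.

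The mature sequences are shown because the seed, bases 2 to 8 counted from the 5′ end, divides the family into 2 groups. They come from RefSeq (GRCr8), which held all 6 members, and the capitals mark the seed.
rno-miR-34a-5p: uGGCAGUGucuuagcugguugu
rno-miR-34b-5p: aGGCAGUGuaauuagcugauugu
rno-miR-34c-5p: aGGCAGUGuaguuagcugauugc
rno-miR-449a-5p: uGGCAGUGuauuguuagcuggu
rno-miR-34b-3p: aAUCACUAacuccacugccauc
rno-miR-34c-3p: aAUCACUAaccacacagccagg

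The 4 members from the 5p arm shared the seed GGCAGUG. Of the 655 miRNAs in the count tables with a RefSeq sequence, 5 carried it, and the fifth, miR-449c-5p, had 0 reads in all libraries. The 3p arms of miR-34b and miR-34c shared the seed AUCACUA with no other of the 655 miRNAs. miR-34b-5p and miR-34c-5p differed at 2 of 23 bases, A11G and U23C, with positions counted from the 5′ end and the miR-34b-5p base first. How the authors assigned reads that match several miRNAs is not given in the sources used here, so how reads with a mismatch were divided between these 2 miRNAs is not known.

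In GRCr8 the hairpins of miR-34c and miR-34b lie on the minus strand of chromosome 8, at chr8:60306091-60306167 and chr8:60306609-60306692, with 441 bases between them. The miR-34c hairpin lies within the span of Hoatz, a gene for a protein of cilia and flagella, and no annotated gene spanned the miR-34b hairpin. The hairpin of miR-34a is at chr5:165815952-165816053 within the span of LOC103692514, and that of miR-449a is at chr2:46403910-46404000 within the span of LOC134485839, both on the plus strand. The counts were made on the older assembly RGSC3.4, and no position was converted between the assemblies.

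The cortex libraries held 744564 to 4069284 miRNA reads each and the thalamus libraries 523298 to 4139901. Levels are given in CPM, the usual scaling of read counts to a common library total, on a scale shared by the 24 libraries and set by trimmed mean of M values (TMM) normalization. In the shallowest library 1 read corresponded to 1.91 CPM before this scaling. All members are 22 or 23 bases long, so levels need no length correction, but the read yield of a miRNA also depends on how well its ends take the adaptors, which was not measured here.

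miR-34c-5p was the most abundant member in every group and miR-449a-5p the least abundant, on the CPM scale. By mean level, miR-34c-5p ranked 135 of 728 miRNAs in sham cortex and 55 in sham thalamus, while miR-34a-5p ranked 161 and 149. The reads with the GGCAGUG seed were therefore divided differently in the 2 regions. miR-34a-5p made up 39.8% ± 9.84 of the summed level of the 4 5p members in sham cortex and 11.4% ± 5.29 in sham thalamus, whereas miR-34c-5p made up 54.2% ± 9.16 and 81.7% ± 6.45 (mean ± SD, n = 6).

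**Figure D1:**
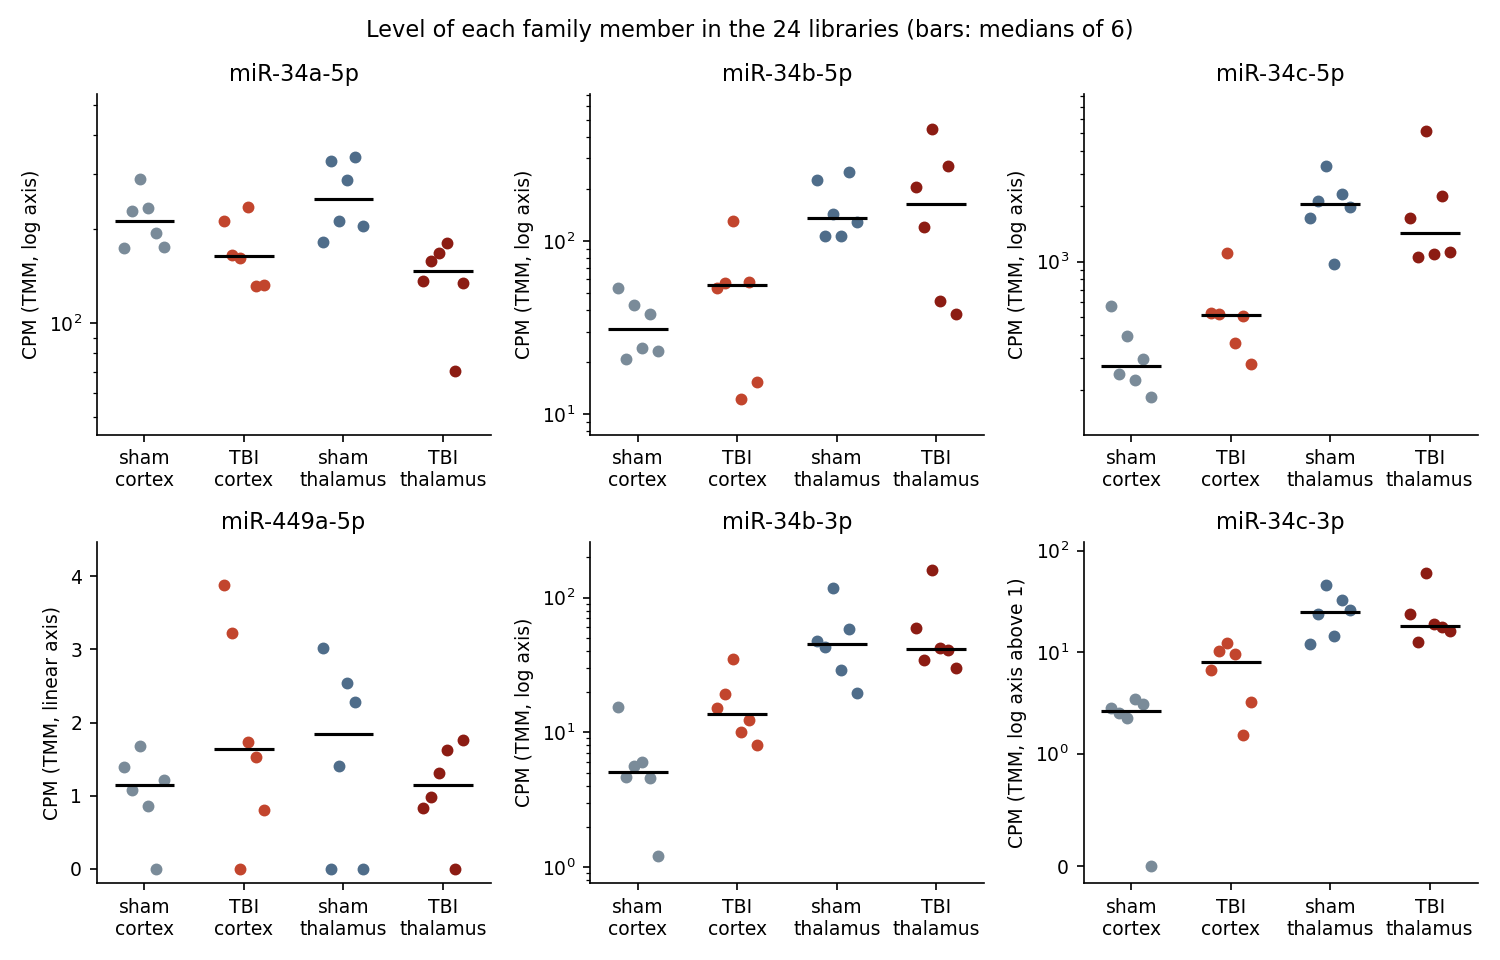
Level of each member in CPM (vertical axis, log or linear as labelled) in each of the 24 libraries, by group along the horizontal axis. Points are rats in the same order within each group and black bars are medians of 6 rats. The miR-34b and miR-34c points sit higher in thalamus than in cortex, and miR-34a-5p does not show this step.

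The first comparison asked how the family is distributed between the 2 regions without injury. In sham rats the 4 miRNAs of the miR-34b and miR-34c hairpins were higher in thalamus than in cortex, by 4.95-fold to 10.6-fold in the fit. miR-34a-5p did not pass the test. Of the 5 members tested 4 passed an adjusted p of 0.05, where 23.7% of all 375 miRNAs tested passed in either direction and 12.8% passed as higher in thalamus. Of these 4, miR-34c-3p and miR-34b-3p were sparse in cortex and entered the test through their thalamus reads.

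rno-miR-34c-5p, the main product of its hairpin, ranged from 182.3 to 569.4 CPM in sham cortex, with a median of 269.8, and from 972.9 to 3304 CPM in sham thalamus, with a median of 2066. The ranges did not overlap, and the thalamus was higher in 6 of 6 rats, by 3.04-fold to 10.9-fold within a rat. The log2 fold change was 2.76 (SE 0.32, adjusted p = 1.6e-05, edgeR quasi-likelihood test).

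rno-miR-34c-3p, from the opposite arm of the same hairpin, was sparse in sham cortex at 0 to 8 reads per library, or 0 to 3.43 CPM with a median of 2.65. The 1 library without a read, of sham rat 55, allows up to 3 reads, and this covers counting error only. In sham thalamus it ranged from 12.1 to 45.7 CPM with a median of 25.01. These ranges did not overlap either, and the log2 fold change was 3.41 (SE 0.42, adjusted p = 2.5e-05, edgeR), the second highest of the 375 miRNAs tested. In the cortex libraries alone it was under the read filter. It entered this fit through the tissue where it was high, which limits what its call and rank show.

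rno-miR-34b-5p, from the neighbouring hairpin, ranged from 20.8 to 53.7 CPM in sham cortex (median 31.1) and from 106.2 to 251.8 CPM in sham thalamus (median 135.7). Its partner miR-34b-3p ranged from 1.22 to 15.4 CPM (median 5.12) and from 19.6 to 116.8 CPM (median 45.03). For both arms all thalamus libraries lay above all cortex libraries. The log2 fold changes were 2.31 (SE 0.30, adjusted p = 3.3e-05, edgeR) for miR-34b-5p and 3.10 (SE 0.47, adjusted p = 1.1e-04, edgeR) for miR-34b-3p. Groups did not overlap, with thalamus above cortex, for 7.47% of the miRNAs tested. miR-34b-3p had 1 to 22 reads per sham cortex library. It entered this fit through its thalamus reads, which limits what its call shows.

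rno-miR-34a-5p, the p53-linked member, ranged from 173.8 to 289.0 CPM in sham cortex (median 211.7) and from 181.6 to 339.7 CPM in sham thalamus (median 249.3). The ranges overlapped over most of their width, although the thalamus was the higher tissue in 5 of 6 rats. The log2 fold change was 0.32 (SE 0.19, adjusted p = 0.246, edgeR), with an approximate 95% interval from -0.06 to 0.70. With library size as the only scaling, which moved the median over all miRNAs from 0.08 to 0.45, it was 0.70 with an adjusted p of 0.0301.

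In TBI rats the same 4 miRNAs were higher in thalamus, by 3.76-fold to 4.31-fold in the fit, and again 4 of 5 members passed. Here too miR-34c-3p, with 1 to 22 reads in the TBI cortex libraries, entered the test through its thalamus reads. Of all 386 miRNAs tested, 20.7% passed in either direction and 13% as higher in thalamus. miR-34c-5p ranged from 275.1 to 1108 CPM in TBI cortex (median 512.4) and from 1054 to 5152 CPM in TBI thalamus (median 1427). The highest cortex library, of rat 45, lay just above the lowest thalamus libraries on this scale. Within each rat the thalamus was higher in 6 of 6, by 2.04-fold to 4.65-fold, and the log2 fold change was 2.11 (SE 0.45, adjusted p = 0.00353, edgeR).

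The other 3 members of these hairpins had log2 fold changes of 1.91 (SE 0.48, adjusted p = 0.00964) for miR-34c-3p, 2.08 (SE 0.48, adjusted p = 0.00632) for miR-34b-3p and 1.98 (SE 0.65, adjusted p = 0.0399) for miR-34b-5p. All 3 were higher in thalamus in 6 of 6 TBI rats. The groups did not overlap for miR-34c-3p, where 3.89% of all miRNAs tested showed this. The call of miR-34b-5p was the weakest. It was lost without rat 22 (adjusted p = 0.102), without rat 24 (0.0773) and without rat 56 (0.152), and under 3 of the other settings. Without rat 45, the library that stood highest, all 4 calls held (adjusted p of 0.0444 or less). With the rat as a block, which pairs the 2 tissues of an animal, it held (adjusted p = 2.1e-07). miR-34a-5p in TBI rats changed by -0.14 on the log2 scale (SE 0.24), which did not pass (adjusted p = 0.749), and the thalamus was higher in 2 of 6 rats.

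**Figure D2:**
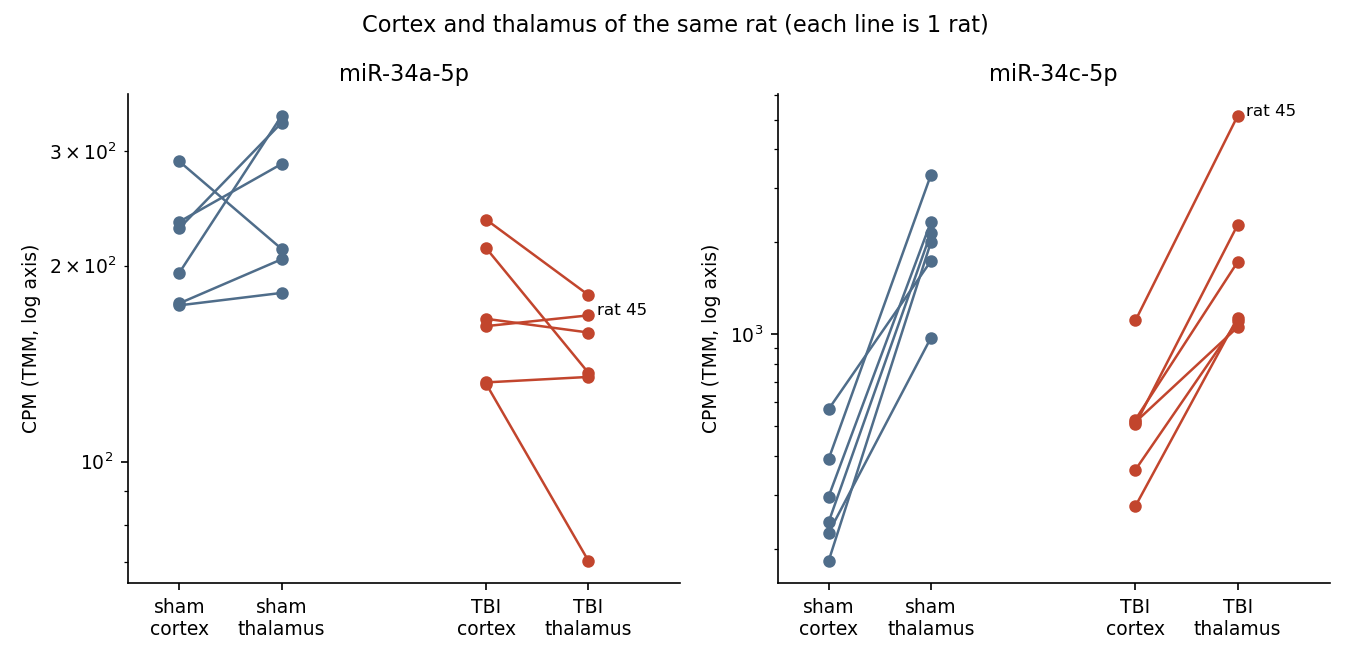
Level in CPM (vertical log axis) of miR-34a-5p (left) and miR-34c-5p (right) in cortex and thalamus, with a line joining the 2 tissues of each rat. Every miR-34c-5p line rises from cortex to thalamus in the 12 rats, and the miR-34a-5p lines rise in 5 of 6 sham rats and 2 of 6 TBI rats.

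The second comparison asked whether the family differed between TBI and sham rats in the ipsilateral thalamus. None of the 5 members tested passed, by edgeR with an adjusted p of 0.05, where 0.513% of all 390 miRNAs passed. At an unadjusted p under 0.05 there was 1 member, miR-34a-5p, and 5.13% of all miRNAs. DESeq2 also called 0 of the 5.

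miR-34a-5p ranged from 70.4 to 180.2 CPM in TBI thalamus (median 147.3), against 181.6 to 339.7 CPM in sham thalamus (median 249.3). All 6 TBI libraries lay below all 6 sham libraries, with TBI rat 52 just under sham rat 26. This held for 0.256% of all miRNAs tested, but when the scale was set by the 12 thalamus libraries alone the ranges met (79.2 to 200.7 against 198.9 to 374.4 CPM). The log2 fold change was -0.87 (SE 0.24), the lowest of the 390 miRNAs tested, and by edgeR its unadjusted p of 0.00267 became an adjusted p of 0.224. The adjusted p was 0.0476 when all 24 libraries shared a fit, the only one of the alternatives in which it passed, and it ranged up to 0.857 over the others.

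The arms of miR-34b and miR-34c were close between TBI and sham thalamus, and their intervals were wide. miR-34c-5p had a median of 1427 CPM in TBI and 2066 CPM in sham thalamus, and the fitted log2 difference was 0.05 (SE 0.41, approximate 95% interval -0.76 to 0.86, adjusted p = 0.986). miR-34c-3p had 0.03 (SE 0.43, interval -0.81 to 0.87), miR-34b-5p 0.26 (SE 0.53, interval -0.77 to 1.30) and miR-34b-3p 0.28 (SE 0.47, interval -0.65 to 1.21). Changes within these intervals were not excluded by these libraries.

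TBI rat 45 carried much of the level in its group. Its thalamus library held 5152 CPM of miR-34c-5p, and the next highest TBI library held 2274 CPM. Without this rat the log2 fold changes in thalamus turned negative, to -0.46 for miR-34c-5p, -0.50 for miR-34c-3p, -0.22 for miR-34b-5p and -0.32 for miR-34b-3p, and none passed (adjusted p from 0.927 to 0.994, edgeR). The value of miR-34a-5p without it was -0.90.

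In perilesional cortex the members are described without a test, because the family was proposed with the cortical value of miR-34c-3p known. None of the 4 members tested was past an adjusted p of 0.05, and 5.93% of all 371 miRNAs were. That count was 1 with library size as the only scaling, by DESeq2 and without sham rat 26 (miR-34b-3p in each), and 1 of 6 without the read filter (miR-34c-3p), so nothing is read from it. miR-34c-3p and miR-449a-5p were under the read filter, so their values come from the fit without a filter.

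miR-34c-3p ranged from 1.53 to 12.2 CPM in TBI cortex (median 8.09), against 0 to 3.43 CPM in sham cortex (median 2.65). Of the TBI libraries 4 lay above all sham libraries, and those of rats 56 and 63, with 1 and 4 reads, lay within them. The log2 fold change was 1.61 (SE 0.45). miR-34b-3p ranged from 8.07 to 35.2 CPM in TBI cortex (median 13.7) against 1.22 to 15.4 CPM in sham cortex (median 5.12), with a log2 fold change of 1.39 (SE 0.44), the second highest of the 371 miRNAs tested. miR-34b-3p had 1 to 22 reads in the sham cortex libraries. It entered this fit through its TBI reads, which limits what its rank shows. Both 3p arms thus had higher medians in TBI cortex, with overlapping groups and at most 46 reads per library.

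The 5p arms were measured with more reads and differed less. miR-34c-5p ranged from 275.1 to 1108 CPM in TBI cortex (median 512.4) against 182.3 to 569.4 CPM in sham cortex (median 269.8), with a log2 fold change of 0.81 (SE 0.32). All 6 TBI libraries exceeded the sham median, but 1 of them exceeded the highest sham library, of rat 26. miR-34b-5p ranged from 12.2 to 130.1 CPM (median 55.4) against 20.8 to 53.7 CPM (median 31.1), with a log2 fold change of 0.71 (SE 0.47). TBI libraries stood at both ends of its range, with 3 above all sham libraries and 2 below them. Without rat 45 the log2 fold change was 0.43 for miR-34c-5p and 0.18 for miR-34b-5p, while that of miR-34c-3p was 1.45 and that of miR-34b-3p 0.99.

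miR-34a-5p pointed the other way in cortex. It ranged from 131.6 to 235.3 CPM in TBI cortex (median 163.6) against 173.8 to 289.0 CPM in sham cortex (median 211.7), and 4 TBI libraries lay below all sham libraries. The log2 fold change was -0.28 (SE 0.18). The ratio of miR-34c-5p to miR-34a-5p reads, which no scaling can change, was 0.963 to 3.28 in sham cortex (median 1.21) and 1.54 to 6.86 in TBI cortex (median 2.80). In thalamus the same ratio was 3.396 to 15.6 in sham rats (median 8.19) and 6.13 to 32.3 in TBI rats (median 10.5). Ranges overlapped between TBI and sham in both regions.

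**Figure D3:**
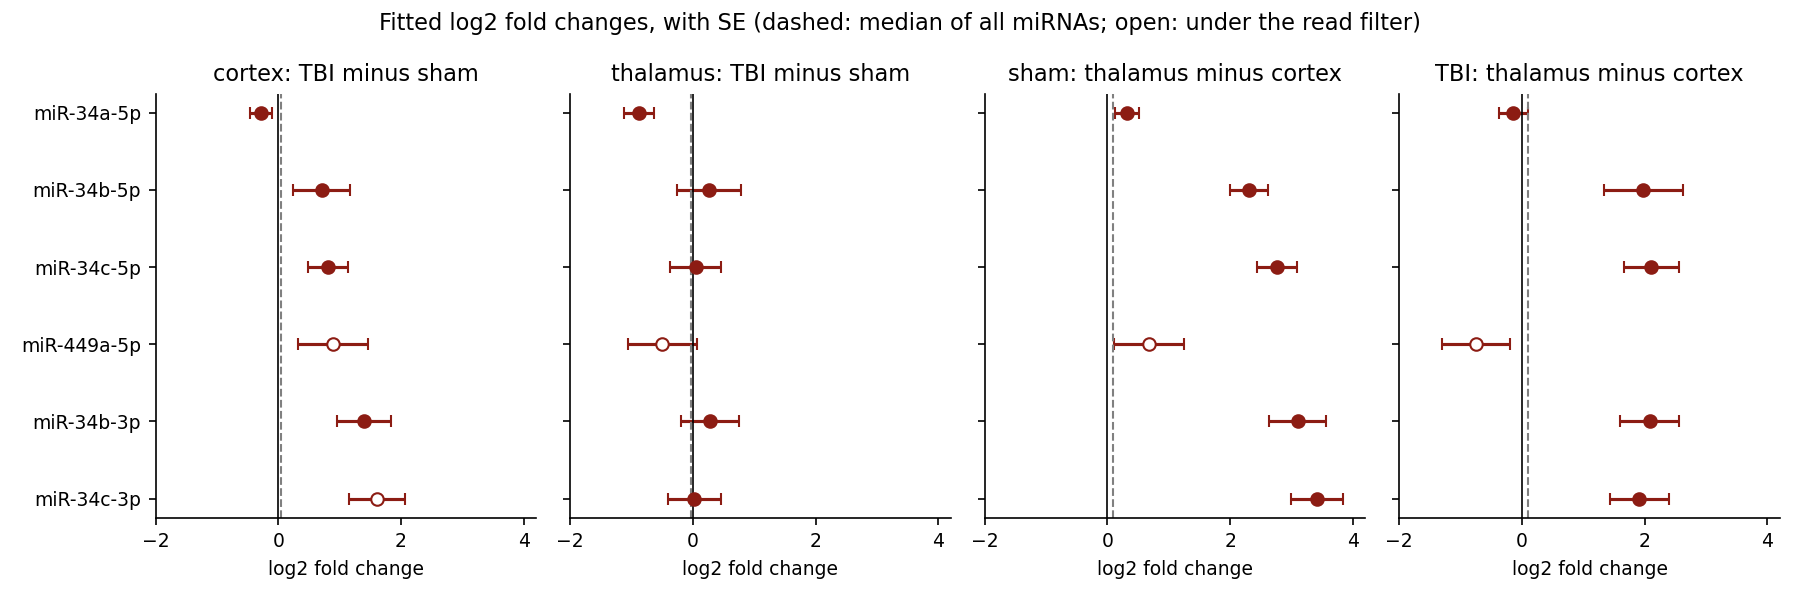
Log2 fold change (horizontal axis) of each member in the 4 comparisons, with error bars of 1 SE. Dashed lines mark the median of all miRNAs tested, and open circles mark members under the read filter. In both between-region panels the miR-34b and miR-34c arms lie near 2 to 3.4 and miR-34a-5p lies near 0.

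The injury effect was then compared between the regions with an interaction term over the 24 libraries. This fit did not pair the tissues of a rat. No member and none of the 407 miRNAs tested passed (0%) by edgeR or by DESeq2, and 17 miRNAs, or 4.18%, had an unadjusted p under 0.05. The effect in thalamus minus that in cortex was -1.57 on the log2 scale (SE 0.69) for miR-34c-3p, -1.10 (SE 0.71) for miR-34b-3p, -0.74 (SE 0.57) for miR-34c-5p, -0.40 (SE 0.75) for miR-34b-5p and -0.53 (SE 0.31) for miR-34a-5p. All 5 had an adjusted p of 1.00 after rounding. With the rat as a block no member passed either. The members with a higher cortical level in TBI rats are therefore not shown to differ in their response between cortex and thalamus.

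rno-miR-449a-5p, which has the same seed as miR-34a-5p and is known as an abundant miRNA of multiciliated cells, was near the limit of detection. The 6 libraries together held 11 reads in sham cortex, 23 in TBI cortex, 25 in sham thalamus and 18 in TBI thalamus, with 0 to 10 reads in a library and 5 of 24 libraries at 0. The summed reads correspond to 0.889 CPM without TMM scaling (exact Poisson 95% interval 0.444 to 1.59) in sham cortex, 2.23 (1.42 to 3.35) in TBI cortex, 2.08 (1.34 to 3.07) in sham thalamus and 1.42 (0.839 to 2.24) in TBI thalamus, and these intervals cover counting error only. It did not pass the read filter in any comparison. In the fits without a filter its log2 fold change from cortex to thalamus was 0.67 (SE 0.57) in sham rats and -0.75 (SE 0.55) in TBI rats, neither past the test (adjusted p = 0.440 and 0.421, edgeR). The approximate 95% interval in sham rats ran from -0.44 to 1.78, below the fitted values of all 4 miR-34b and miR-34c arms. Of these arms only miR-34b-5p had an interval that overlapped it (1.71 to 2.90), and no test compared the members.

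The share of the 3p arm describes how the 2 strands of a hairpin are kept, and it does not depend on library size. For miR-34c the 3p arm made up 0.766% ± 0.524 of the reads of both arms in sham cortex, 1.38% ± 0.781 in TBI cortex, 1.22% ± 0.283 in sham thalamus and 1.26% ± 0.308 in TBI thalamus (mean ± SD, n = 6). For miR-34b it was far larger, at 14.6% ± 6.60, 27.6% ± 10.3, 24.0% ± 11.4 and 29.5% ± 13.8. The highest miR-34c share in any library was 2.58% and the lowest miR-34b share 5.0%, so the 2 hairpins did not overlap in this measure.

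Neither share differed between TBI and sham thalamus beyond the spread of the rats. The difference was 0.05 percentage points for miR-34c (exact two-sided permutation p = 0.788, adjusted p = 0.788) and 5.48 for miR-34b (exact permutation p = 0.452, adjusted p = 0.603). Between thalamus and cortex of the sham rats the share was higher in thalamus in 5 of 6 rats for each hairpin, by 0.451 percentage points for miR-34c (exact sign-flip permutation p = 0.0625, adjusted p = 0.188) and 9.39 for miR-34b (exact p = 0.0938, adjusted p = 0.188). The smallest p that 6 pairs allow is 0.0313, and the adjustment was made over these 4 tests.

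The miR-34b share varied by rat, a pattern picked out after its values were seen and given as a description. In TBI rat 52 the 3p arm made up 45.1% of miR-34b reads in cortex (23 of 51 reads) and 48.4% in thalamus (78 of 161 reads). In TBI rat 63 it made up 34.5% in cortex (only 10 of 29 reads) and 44.2% in thalamus (68 of 154 reads). In the other 4 TBI rats the share was 13.2% to 26.7% in both tissues.

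The same 2 rats had few miR-34b-5p reads beside miR-34c-5p. The ratio of miR-34c-5p to miR-34b-5p reads was 29.7 in cortex and 24.6 in thalamus of rat 52, and 17.9 and 29.9 in rat 63. In the other 4 TBI rats it was 8.37 to 11.6 over both tissues. Among sham rats the cortex ratio was 7.76 to 11.8, while the thalamus ratio was 7.65 to 23.1, highest in rat 34, whose thalamus also had the highest sham 3p share of miR-34b (44.96%) but whose cortex did not (11.5%, from 87 reads). In rats 52 and 63 miR-34b-5p was 12.2 and 15.3 CPM in cortex and 44.9 and 37.9 CPM in thalamus, while the other 4 TBI rats had at least 53.7 and 121.0 CPM. miR-34b-3p was closer to the others, at 10.0 and 8.07 CPM in cortex, where the other 4 had at least 12.2 CPM, and at 42.2 and 29.98 CPM in thalamus, where they had at least 34.5 CPM.

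**Figure D4:**
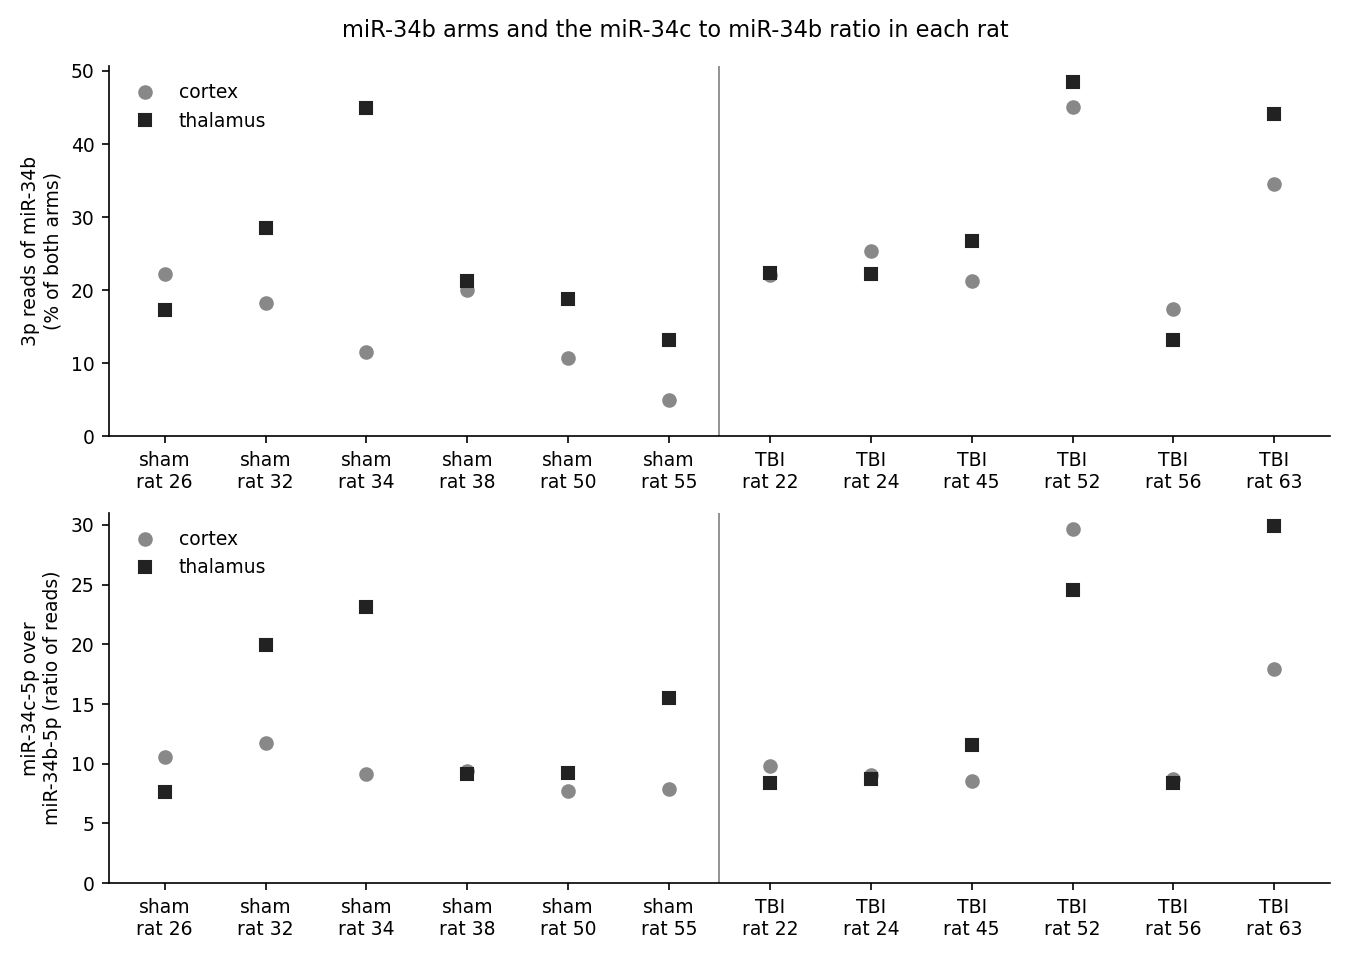
Share of 3p reads among miR-34b reads in percent (upper panel) and ratio of miR-34c-5p to miR-34b-5p reads (lower panel) for each of the 12 rats, in cortex (circles) and thalamus (squares). TBI rats 52 and 63 stand above the other TBI rats in both panels and both tissues.

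Lists of miRNAs that mark other cell types were set beside the family, since these are bulk tissues. The list for choroid plexus and epithelium, cells that border the ventricles or line other surfaces, held 12 miRNAs, all of them in the count tables and 5 of them tested in each two-group comparison. Its summed level ranged from 1056 to 2090 CPM in sham cortex, 1035 to 2455 in TBI cortex, 1193 to 5160 in sham thalamus and 1091 to 12552 in TBI thalamus. The highest TBI library in both tissues was that of rat 45, and sham rat 26 was highest in sham cortex, as they were for miR-34c-5p. In sham thalamus the list was highest in rat 50 and miR-34c-5p in rat 34.

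Most of that sum was miR-204-5p, an abundant miRNA of choroid plexus, with 1374 CPM in sham cortex and 2595 CPM in sham thalamus on average. Its log2 fold change from cortex to thalamus was 0.96 (SE 0.34, adjusted p = 0.0508, edgeR) in sham rats, against 2.76 for miR-34c-5p, and 1.604 (SE 0.58, adjusted p = 0.0626) in TBI rats. miR-204-3p had 0.62 (SE 0.41) and 1.10 (SE 0.52). miR-211-5p, a close relative of miR-204-5p, had 0.50 (SE 0.41) and 0.09 (SE 0.60). In rat 45 the thalamus library held 12207 CPM of miR-204-5p and 144.6 CPM of miR-211-5p, the highest of all 24 libraries for both.

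Of the 5 list members tested between regions, 0 rose and 1, miR-205, was lower in thalamus in both sham and TBI rats, with a median log2 fold change of 0.50 in sham rats and 0.09 in TBI rats beside 0.08 and 0.09 for all miRNAs. Over all miRNAs tested, 12.8% rose and 10.9% fell in thalamus in sham rats, and 13% rose and 7.77% fell in TBI rats. Between TBI and sham rats 1 of 5 rose in cortex, miR-211-5p, which the study also picked from these libraries, and 0 in thalamus, with medians of 0.47 and 0.70. The share of all miRNAs that rose was 2.96% in cortex and 0.513% in thalamus. No read of miR-200b-5p was found in either sham group or in TBI thalamus, miR-200a-5p had none in either sham group, and miR-211-3p had none in sham thalamus. The part of choroid plexus or ependymal tissue in the thalamus level of miR-34b and miR-34c was not tested.

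**Figure D5:**
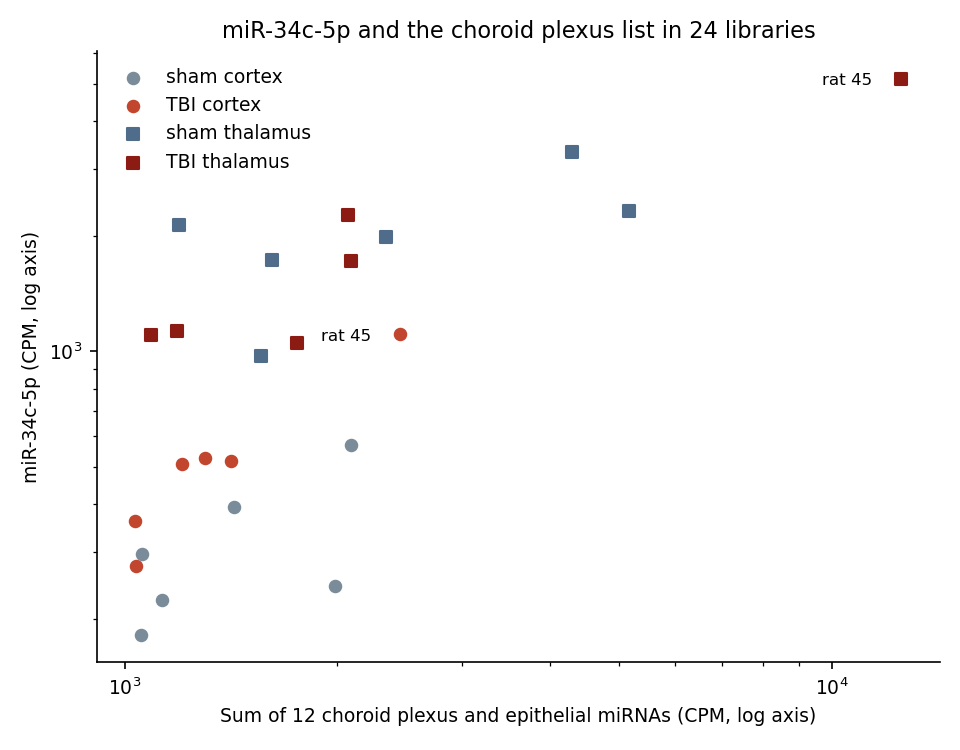
Level of miR-34c-5p (vertical log axis, CPM) against the summed level of the 12 miRNAs on the choroid plexus and epithelial list (horizontal log axis, CPM) in the 24 libraries, by group. Thalamus libraries lie above cortex libraries at like list levels, and rat 45 lies at the upper right of each tissue in TBI rats.

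The other miRNAs linked to p53, apart from miR-34, gave 7 of 8 in the count tables and 6 tested. None passed between TBI and sham rats in cortex or thalamus, with median log2 fold changes of 0.42 and 0.07 beside 0.05 and -0.03 for all miRNAs. miR-143-3p and miR-145-5p, its most abundant members and also known for smooth muscle, had 0.29 (SE 0.20) and 0.53 (SE 0.38) in thalamus, where miR-34a-5p had -0.87. Between regions in sham rats 1 rose in thalamus, miR-192-5p (0.68, SE 0.23, adjusted p = 0.0449), and 1 fell, miR-143-3p (-0.69, SE 0.15, adjusted p = 0.00311). Over all miRNAs tested, 12.8% rose and 10.9% fell in this comparison.

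Markers of other cells also moved between the regions. All 4 oligodendrocyte miRNAs rose in thalamus in sham rats and in TBI rats, led in level by miR-219a-2-3p (1.82, SE 0.18, in sham rats) and miR-338-5p (1.33, SE 0.17), with a median of 1.58. Of 6 neuron miRNAs 4 fell in thalamus in each injury group, miR-128-3p by 1.29 (SE 0.24) and miR-9a-5p by 0.64 (SE 0.13) on the log2 scale in sham rats. Over all miRNAs tested, 12.8% rose and 10.9% fell in thalamus in sham rats, and 13% rose and 7.77% fell in TBI rats. Of the leukocyte and microglia miRNAs tested, 1 of 5 in sham rats and 1 of 7 in TBI rats rose in thalamus, in both cases miR-21-5p (1.21, SE 0.17, in sham rats), and 0 fell.

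Between TBI and sham rats 2 of 6 leukocyte and microglia miRNAs rose in thalamus, miR-155-5p and miR-146a-5p, both picked by the study from these libraries, and 0 of 7 in cortex, while miR-150-5p had 0.48 (SE 0.19) in thalamus. Of the neuron miRNAs 2 of 6 fell in cortex, miR-128-3p and miR-132-3p, and 0 in thalamus. Over all miRNAs tested, 2.96% rose and 2.96% fell in cortex, and 0.513% rose and 0% fell in thalamus. The oligodendrocyte list had no call between TBI and sham rats in either region. The red cell list, with 3 of 4 miRNAs in the count tables and 2 tested, miR-451-5p and miR-144-3p, had no call in any comparison. The part of these cell types in the family's values was not tested.

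The miRNAs most like each member were found by the Pearson correlation of log2 CPM after the 4 group means were taken off, over 24 libraries that share depth and tissue effects and come from 12 rats, among 406 other miRNAs. For miR-34c-5p they were miR-1298 (r = 0.845), miR-34b-3p (0.844) and miR-448-3p (0.807), and miR-204-5p came next (0.794), followed by miR-34b-5p (0.791). For miR-34b-5p they were miR-34c-5p (0.791), miR-211-5p (0.713) and miR-145-3p (0.711). For miR-34a-5p they were miR-496-3p (0.859), miR-150-5p (0.778) and miR-27b-3p (0.759).

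Among the miRNAs most like miR-34b-5p, miR-34b-3p was at rank 6 (r = 0.649) and miR-34c-3p at rank 49 (0.357). For miR-34a-5p, miR-34c-3p was at rank 91 of 406 (r = 0.419), miR-34b-3p at rank 177 (0.152), miR-34c-5p at rank 219 (0.010) and miR-34b-5p at rank 268 (-0.166). miR-34c-3p, with few reads in cortex, had r = 0.684 to miR-34c-5p (rank 11). miR-449a-5p was not kept by the read filter, so no likeness is given for it.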

How the data were processed

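Small RNA libraries were sequenced by a service provider for the authors, who trimmed adaptors at base calling, checked reads with FastQC, mapped them to the rat assembly RGSC3.4 and annotated them with miRBase. The aligner, its settings and the sequencing run of each library are not given in the sources used here. The authors deposited raw counts of reads per miRNA for cortex and for thalamus, and these counts were analysed. Tables of CPM deposited by the authors hold the same counts over 1 constant per library in the rows that could be matched to counts. For the small RNAs of thalamus these were 375 of 641 rows. The CPM values were not used further. Columns with the authors' own comparisons (fold changes and p-values) were not used.

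Counts were tested in edgeR 4.0.16 (R 4.3.3) with filterByExpr (minimum count 10), TMM factors and the robust quasi-likelihood fit, with Benjamini-Hochberg adjustment over all miRNAs tested and a threshold of 0.05. SEs were derived from the fold change and its F statistic. TBI and sham rats were compared in each region with 6 libraries a group, the regions in each injury group, and the interaction over all 24 libraries. The fits between regions and of the interaction did not pair the tissues of a rat. Members under the filter take their values from the fit without it. Arm shares were compared by exact permutation in SciPy 1.17.1. Each fit was tested on simulated counts. The robust setting was chosen after both settings were seen, to match an earlier processing of these data, and the fit without it is an alternative. Other alternatives were the DESeq2 1.42.0 test, edgeR with relative log expression (RLE) size factors, library size and scaling by 4 reference miRNAs. The rest were no filter, a shared fit, a rat block and each rat left out.

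The members and lists were chosen with earlier results of these data known. Named miRNAs are the 6 members, the 2 of highest mean CPM in each list, miR-204-5p, miR-211-5p, the 3 most like each 5p member, and list members that passed where a count is 5 or fewer, the last named after their values were seen. Rat numbers come from the labels and mark the same animal in both regions, and deviations from the group means correlated between its 2 libraries with a median r of 0.385 (-0.183 to 0.640).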

Additional observations from a re-analysis of the deposited data

Results flagged for a closer look

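Among 24 groups of 6 values (each member in each group), 6 held a library far from the other 5. Chance gives about 1.2 for independent, normally distributed values. The shape of the CPM values was not checked, and the members share rats and hairpins. In TBI thalamus rat 45 held 5152 CPM of miR-34c-5p (next 2274 CPM), 61.0 CPM of miR-34c-3p (next 23.7 CPM) and 161.6 CPM of miR-34b-3p (next 59.1 CPM). In TBI cortex the same rat held 1108 CPM of miR-34c-5p (next 526.9 CPM). Its summed choroid plexus and epithelial list was 12552 CPM in thalamus and 2455 CPM in cortex, the highest of its group in both, and the part of that in the result was not tested.

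In sham cortex rat 26 held 15.4 CPM of miR-34b-3p (next 6.01 CPM), and rat 55 held 0 CPM of miR-34c-3p (next 2.23 CPM), the latter a matter of 0 reads against 2 to 8 reads in the other 5 libraries.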

How the results depend on the processing

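In the 4 comparisons tested, 388 alternative values were computed for 24 results of members, of which 371 kept their direction and their side of the threshold, 2 gained a call, 6 lost it and 9 changed sign. The 110 values in cortex, compared without a test, had 0 sign changes, and each moved by less than 1 SD between replicates. The sign changes were all in the thalamus injury contrast, where no call was made. Scaling by 4 reference miRNAs gave -0.11 for miR-34c-5p and -0.13 for miR-34c-3p, without sham rat 26 miR-34c-3p was -0.08, and without sham rat 38 the values were -0.05 for both. Leaving out single rats there gave -0.46 to 0.30 for miR-34c-5p, -0.50 to 0.29 for miR-34c-3p, -0.22 to 0.58 for miR-34b-5p and -0.32 to 0.66 for miR-34b-3p, lowest without TBI rat 45 in each. In cortex 0 of 4 tested members were called, but 1 with library size only, 1 by DESeq2 and 1 without a filter, and 0 to 1 when single rats were left out. In thalamus 0 of 5 became 1 when all 24 libraries shared a fit. The 4 calls between regions in sham rats held in every setting, and 5 were called with library size only. In TBI rats miR-34b-5p lost its call in edgeR with RLE size factors (adjusted p = 0.0550), reference scaling (0.0817) and no filter (0.0711). The causes were not tested.

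Over all miRNAs, the cortex calls were 22 in the fit used, 39 with library size only, 41 by DESeq2, 5 in the shared fit and 0 with reference scaling. The calls between regions in TBI rats rose from 80 to 152 with the rat as a replicate block, and the block changed no member's call. With the block the members' log2 fold changes in TBI rats were 1.94 for miR-34c-5p and 1.85 for miR-34b-5p, and 4 of 5 were called in each injury group. The difference in arm share between TBI and sham thalamus changed sign when reads were summed over rats, to -3.22 percentage points for miR-34b and -0.0515 for miR-34c, and leaving out single rats gave -0.0586 to 0.145 for miR-34c. Over every miRNA tested, the middle log2 fold change (the median) shifted by over 0.1 with library size only in cortex (0.05 to 0.25), between regions in sham rats (0.08 to 0.45) and in the interaction (-0.0050 to -0.27), with reference scaling in thalamus (-0.03 to -0.14), between regions in TBI rats (0.09 to -0.12) and in the interaction (to -0.18), and in the shared fit between regions in TBI rats (to -0.03). The fit without robust dispersions, chosen after seeing the data, kept every call of a member that passed the read filter. Depth limits miR-449a-5p and miR-34c-3p in cortex most.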
